A study of Homo sapiens with 60 samples.

Results

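Thrombomodulin (THBD) and 6 Kruppel-like factor genes (KLF2, KLF4, KLF5, KLF6, KLF9 and KLF10) were followed through a screen of medicinal herb extracts in SW1783 cells, an established human astrocytoma line. The 7 genes were chosen by name, with their values in these libraries already known, and are 7 of 60675 gene identifiers in the deposited table. All 7 passed the filter on low counts, as did 17792 genes in all. Because of that choice, the levels and fold changes of the 7 are given as a description and carry no test. RNA-seq libraries were made 24 h after treatment in 20 groups of 3 libraries each. The controls were Vehicle (0.1% DMSO in the sample labels and 2% in the series text) and Wortmannin at 10 µM, a fungal inhibitor of phosphoinositide 3-kinases. The other 18 groups received hot-water extracts of Liriopis seu Ophiopogonis Tuber, Schisandrae Fructus, Longan Arillus, Zizyphi Semen or Aucklandiae Radix at 500, 100 and 20 µg/mL, or of Polygalae Radix at 250, 50 and 10 µg/mL, here called high, medium and low. All groups shared the same line, L-15 medium with 10% FBS and a single time, and whether a group's 3 libraries are separate cultures is not stated, so p-values measure only the spread between libraries, which may be technical. Library names place the Vehicle, Wortmannin and extract libraries in separate sets, with the doses of a herb in the same set, so a difference from Vehicle cannot be told apart from a difference between sets, and the high and low doses of each extract were the main comparison.

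Thrombomodulin is a membrane receptor that binds thrombin, turns it from clotting towards activation of protein C, and is best known on the inner surface of blood vessels. Kruppel-like factors are zinc-finger proteins that bind GC-rich and CACCC-containing DNA. KLF2 and KLF4 are known activators of THBD in endothelium, where flow acts on them through the kinases MEKK3 and ERK5 and the MEF2 factors. KLF5 is linked to proliferating cells, KLF6 is an immediate-early factor, KLF9 responds to glucocorticoid and thyroid hormones, and KLF10 is an early target of TGF-beta.

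The upstream stretches of 4 members are shown because KLF2 and KLF6 moved together across the groups, whereas KLF4 and KLF9 moved in opposite directions with the Aucklandiae dose. Each runs 5′ to 3′ on the strand of the gene, from 250 bases before the RefSeq start (GRCh38.p14) up to that start or to the first annotated exon base, and holds no annotated exon. The KLF2 stretch is chr19:16324576-16324816 (plus strand), that of KLF6 is chr10:3785282-3785459 (minus strand), that of KLF4 is chr9:107489770-107490019 (minus strand, within an intron of a longer KLF4 transcript), and that of KLF9 is chr9:70414658-70414907 (minus strand). Capitals mark matches on either strand to 7 motifs, which may overlap: the Kruppel-like factor core CACCC, the GC box with letters GGGCGG, the CCAAT box, the TATA box with letters TATAAA, the E-box with letters CACGTG, the cyclic AMP response element with letters TGACGTCA, and the MEF2 consensus.
KLF2: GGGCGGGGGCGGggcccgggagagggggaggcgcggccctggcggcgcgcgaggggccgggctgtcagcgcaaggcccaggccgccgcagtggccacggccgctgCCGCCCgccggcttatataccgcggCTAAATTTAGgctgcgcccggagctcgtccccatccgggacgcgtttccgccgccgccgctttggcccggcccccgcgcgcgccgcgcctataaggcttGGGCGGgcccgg
KLF6: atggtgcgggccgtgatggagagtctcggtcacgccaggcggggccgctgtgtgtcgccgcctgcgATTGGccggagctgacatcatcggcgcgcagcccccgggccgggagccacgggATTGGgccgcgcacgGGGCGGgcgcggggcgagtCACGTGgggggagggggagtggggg
KLF4: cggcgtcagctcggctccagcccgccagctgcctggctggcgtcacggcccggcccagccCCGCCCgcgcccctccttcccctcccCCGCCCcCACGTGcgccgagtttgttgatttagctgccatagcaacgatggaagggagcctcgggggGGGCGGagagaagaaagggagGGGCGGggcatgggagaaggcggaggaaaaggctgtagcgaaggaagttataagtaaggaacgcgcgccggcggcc
KLF9: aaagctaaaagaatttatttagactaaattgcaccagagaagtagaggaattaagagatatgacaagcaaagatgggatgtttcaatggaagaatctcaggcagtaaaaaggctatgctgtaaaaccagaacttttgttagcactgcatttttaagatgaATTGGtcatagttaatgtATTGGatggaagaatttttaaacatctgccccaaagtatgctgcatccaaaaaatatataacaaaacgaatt
The GC content was 79.3% for KLF2, 76.4% for KLF6, 69.2% for KLF4 and 32.4% for KLF9. KLF2 held 4 GC boxes, a motif found in 41.5% of 35116 RefSeq promoter windows of the same length, and 1 MEF2-type match, found in 2.8% of them. KLF6 held 1 GC box (30.9% of windows of its length), 2 CCAAT boxes (23.4%) and 1 E-box (3.8%). KLF4 held 4 GC boxes (42.6%) and 1 E-box (6.3%). KLF9 held 2 CCAAT boxes (32.0%) and none of the other letters searched. Of the 7 members, 5 had an entry in the RefSeq promoter table.

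On the GRCh38 annotation (GENCODE 29), no other annotated gene overlapped any of the 7. THBD (ENSG00000178726) lies at chr20:23045633-23049741, KLF2 (ENSG00000127528) at chr19:16324817-16327874, KLF4 (ENSG00000136826) at chr9:107484852-107490482, KLF5 (ENSG00000102554) at chr13:73054976-73077542, KLF6 (ENSG00000067082) at chr10:3775996-3785281, KLF9 (ENSG00000119138) at chr9:70384597-70414624 and KLF10 (ENSG00000155090) on chromosome 8. Levels are CPM, counts scaled to each library's TMM-normalised total, and levels of different genes were compared only after division by exon length. In Vehicle, KLF10 had 21.7 ± 1.13 CPM per kb (SD, n = 3), KLF6 had 19.8 ± 0.117, KLF9 had 15.5 ± 0.159 and KLF5 had 9.04 ± 0.671. THBD had 2.28 ± 0.139, KLF4 had 1.76 ± 0.0647 and KLF2 had 1.72 ± 0.0156 CPM per kb, so THBD and the pair known to activate it were the lowest of the 7. With Schisandrae high, THBD had 27.2 ± 0.564 CPM per kb, beside 28.4 ± 0.475 for KLF6 and 27.0 ± 1.37 for KLF10.

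The libraries held 9.34 M to 35.35 M counts, with a median of 25.71 M, so precision is lowest for the genes at few CPM. In Liriopis high, replicate 1 stood apart, and the counts of members or genes for that group are given with and without it. Polygalae high had 12.42% to 13.37% mitochondrial counts, against 10.32% to 10.57% in Vehicle. Of the astrocyte markers, GFAP, S100B, AQP4 and ALDH1L1 stayed at or below 0.339 CPM in every library, whereas VIM averaged 4785 CPM and SOX9 81.1 CPM in Vehicle. None of the 7 endothelial markers (PECAM1, CDH5, VWF, CLDN5, ERG, TIE1 and ESAM) exceeded 1.31 CPM in any library, and CDH5 had a median of 0.

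THBD spanned the widest range of the 7, with a 15.4-fold difference between the highest and lowest group mean. The Schisandrae high libraries had 115, 111 and 111 CPM, the medium libraries 12.1, 11.04 and 12.4 CPM and the low libraries 9.38, 11.4 and 10.6 CPM. Nearly all of the range lay between the medium and high doses, and the medium and low libraries overlapped. The log2 fold change of high against low was 3.41 ± 0.09 (SE). The Aucklandiae high libraries had 34.0, 34.2 and 30.4 CPM, against 11.8, 11.7 and 10.9 CPM at the medium and 9.98, 9.92 and 9.10 CPM at the low dose. All 3 high libraries were above the others, the medium libraries lay above the low ones by a small margin, and the high against low log2 fold change was 1.76 ± 0.09. Polygalae differed in shape, with a step at each dose. Its libraries had 28.8, 25.4 and 26.2 CPM at the high, 17.8, 16.6 and 14.8 CPM at the medium and 10.6, 10.6 and 9.59 CPM at the low dose. The 3 doses did not overlap, and the high against low log2 fold change was 1.39 ± 0.09. In bulk RNA, a change in the share of cells that express a gene and a change in its RNA per cell cannot be told apart.

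**Figure D1:**
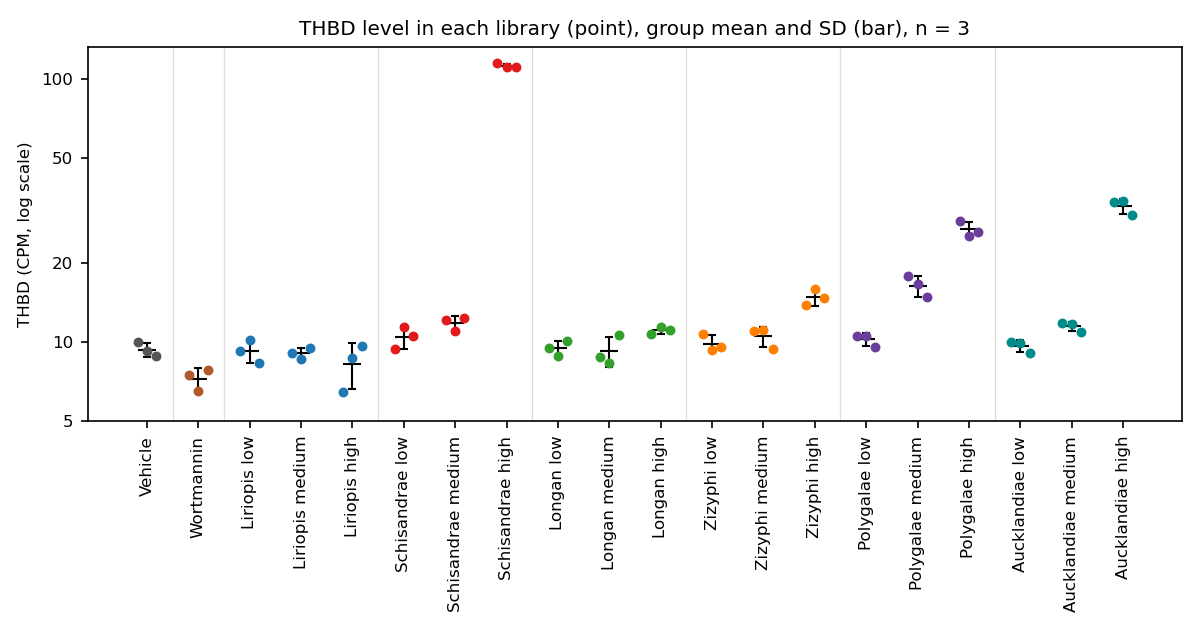
THBD level in CPM (log axis) in each of the 60 libraries by group, with points for libraries and bars for the group mean and SD (n = 3). The Schisandrae high libraries sit at 111 to 115 CPM, Aucklandiae and Polygalae high between 25.4 and 34.2 CPM, and Wortmannin is the lowest group.

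The remaining treatments moved THBD less than Schisandrae, Aucklandiae or Polygalae high did, and Liriopis not beyond the spread of its libraries. Zizyphi high had 13.8, 16.0 and 14.7 CPM against 10.7, 9.34 and 9.55 CPM at its low dose, with all high libraries above and a log2 fold change of 0.59 ± 0.10. Longan high had 10.8, 11.4 and 11.1 CPM against 9.47, 8.85 and 10.1 CPM, also without overlap, and a log2 fold change of 0.23 ± 0.10. Liriopis high had 6.45, 8.71 and 9.68 CPM against 9.22, 10.2 and 8.32 CPM, the groups overlapped, and the log2 fold change was -0.17 ± 0.11. That value was -0.03 without replicate 1 of Liriopis high, its lowest library. Wortmannin had 7.46, 6.50 and 7.82 CPM against 9.97, 9.25 and 8.85 CPM in Vehicle, the only group of 19 whose libraries all lay below Vehicle, with a log2 fold change of -0.36 ± 0.10. In the order of the 20 group means, the top 3 (Schisandrae, Aucklandiae and Polygalae high) did not overlap each other or the next. Polygalae medium and Zizyphi high overlapped each other only, and from Schisandrae medium down each group overlapped the next lower one.

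KLF2 stood at 3.47, 3.46 and 3.52 CPM in Vehicle and was highest with Polygalae. The Polygalae high libraries had 9.57, 7.95 and 8.06 CPM, the medium 6.57, 6.58 and 5.64 CPM and the low 5.11, 5.61 and 5.18 CPM. The doses did not overlap, and even the low dose was above all Vehicle libraries; the high against low log2 fold change was 0.69 ± 0.14. Schisandrae high had 6.82, 8.12 and 6.68 CPM, against 3.75, 3.73 and 3.19 CPM at the low dose, a log2 fold change of 1.01 ± 0.15. The medium Schisandrae libraries, at 3.55, 2.82 and 3.97 CPM, overlapped the low ones, as they did for THBD. Aucklandiae high had 5.59, 5.67 and 7.13 CPM against 4.75, 3.48 and 4.36 CPM at the low dose (0.53 ± 0.15), and its medium libraries, at 5.96, 4.85 and 5.97 CPM, overlapped the high ones. For THBD the order of these herbs was Schisandrae, Aucklandiae, Polygalae, whereas the highest KLF2 mean was that of Polygalae (8.53 ± 0.90 CPM, SD), whose libraries overlapped those of Schisandrae high (7.21 ± 0.79 CPM).

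KLF4, the close relative of KLF2 in endothelium, followed another pattern. Aucklandiae high had 8.73, 9.03 and 8.09 CPM, its medium dose 7.52, 7.62 and 6.82 CPM and its low dose 6.70, 7.24 and 6.33 CPM. The high libraries lay above those of every other group, with a log2 fold change of 0.35 ± 0.10 against the low dose. Schisandrae high, where THBD was highest, had 5.97, 5.92 and 5.89 CPM of KLF4, all below the Vehicle libraries at 6.50, 6.15 and 6.61 CPM. Its log2 fold change against the low dose was 0.05 ± 0.10, although the 3 libraries of each dose did not overlap. Longan high had 5.49, 4.65 and 5.74 CPM against 6.56, 6.41 and 6.40 CPM at its low dose, without overlap and with a log2 fold change of -0.28 ± 0.10. Of the 19 treated groups, KLF4 lay above Vehicle in 2, below it in 6 and overlapped it in 11.

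KLF6 was at 121.9, 121.7 and 120.6 CPM in Vehicle and was graded with the Polygalae dose. The libraries had 228, 191 and 201 CPM at the high, 178, 171 and 166 CPM at the medium and 155, 133 and 141 CPM at the low dose. The doses did not overlap, all were above Vehicle, and the high against low log2 fold change was 0.53 ± 0.10. Schisandrae high had 178, 173 and 172 CPM against 119, 113 and 115 CPM at its low dose (0.60 ± 0.10). Aucklandiae high had 170, 155 and 161 CPM against 141, 121 and 127 CPM (0.32 ± 0.10), and its medium libraries overlapped the high ones. Zizyphi high had 141, 127 and 130 CPM against 119, 105 and 103 CPM (0.28 ± 0.10), again without overlap. In every extract group replicate 1 had the highest KLF6 level of the 3. In Liriopis high, replicate 1 had 175 CPM and the others 112 and 110 CPM, so the log2 fold change of 0.22 ± 0.10 against the low dose became -0.03 without that library.

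KLF9 was the member with opposite movements in extracts of the same library set. The Polygalae high libraries had 147, 123 and 129 CPM, the medium 122, 119 and 113 CPM and the low 91.4, 90.1 and 92.6 CPM, against 79.3, 80.9 and 79.9 CPM in Vehicle. Every Polygalae library was above Vehicle, and the high against low log2 fold change was 0.54 ± 0.07. The Aucklandiae libraries went down with dose, from 80.3, 69.4 and 76.4 CPM at the low to 64.2, 60.9 and 67.6 CPM at the medium and 48.0, 47.6 and 52.2 CPM at the high dose. These doses did not overlap, and the log2 fold change was -0.61 ± 0.07. Wortmannin gave 114, 105 and 107 CPM, all above Vehicle (0.44 ± 0.07), and KLF9 was the only member of the 7 with Wortmannin libraries all above Vehicle. In 10 extract groups all libraries lay below Vehicle: every dose of Liriopis and Longan, and the medium and high doses of Zizyphi and Aucklandiae.

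KLF10 and KLF5 varied least between groups. KLF10 was at 83.0, 91.9 and 85.9 CPM in Vehicle and highest with Schisandrae high, at 110, 102 and 113 CPM, where all libraries exceeded the low dose at 86.8, 89.0 and 79.0 CPM (0.35 ± 0.07). Between the Polygalae doses it differed by -0.03 ± 0.07 on the log2 scale. KLF5 was at 32.3, 35.8 and 37.4 CPM in Vehicle and was above it in none of the 19 treated groups. Schisandrae high had 30.7, 25.9 and 28.7 CPM against 37.5, 36.6 and 33.3 CPM at the low dose (-0.33 ± 0.09), and Aucklandiae high had 29.5, 28.8 and 27.4 CPM against 33.7, 31.4 and 34.1 CPM (-0.21 ± 0.09), both without overlap. Polygalae high had 29.4, 22.4 and 23.3 CPM of KLF5 against 33.7, 28.9 and 30.6 CPM (-0.31 ± 0.10), where 1 high library overlapped the low ones.

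**Figure D2:**
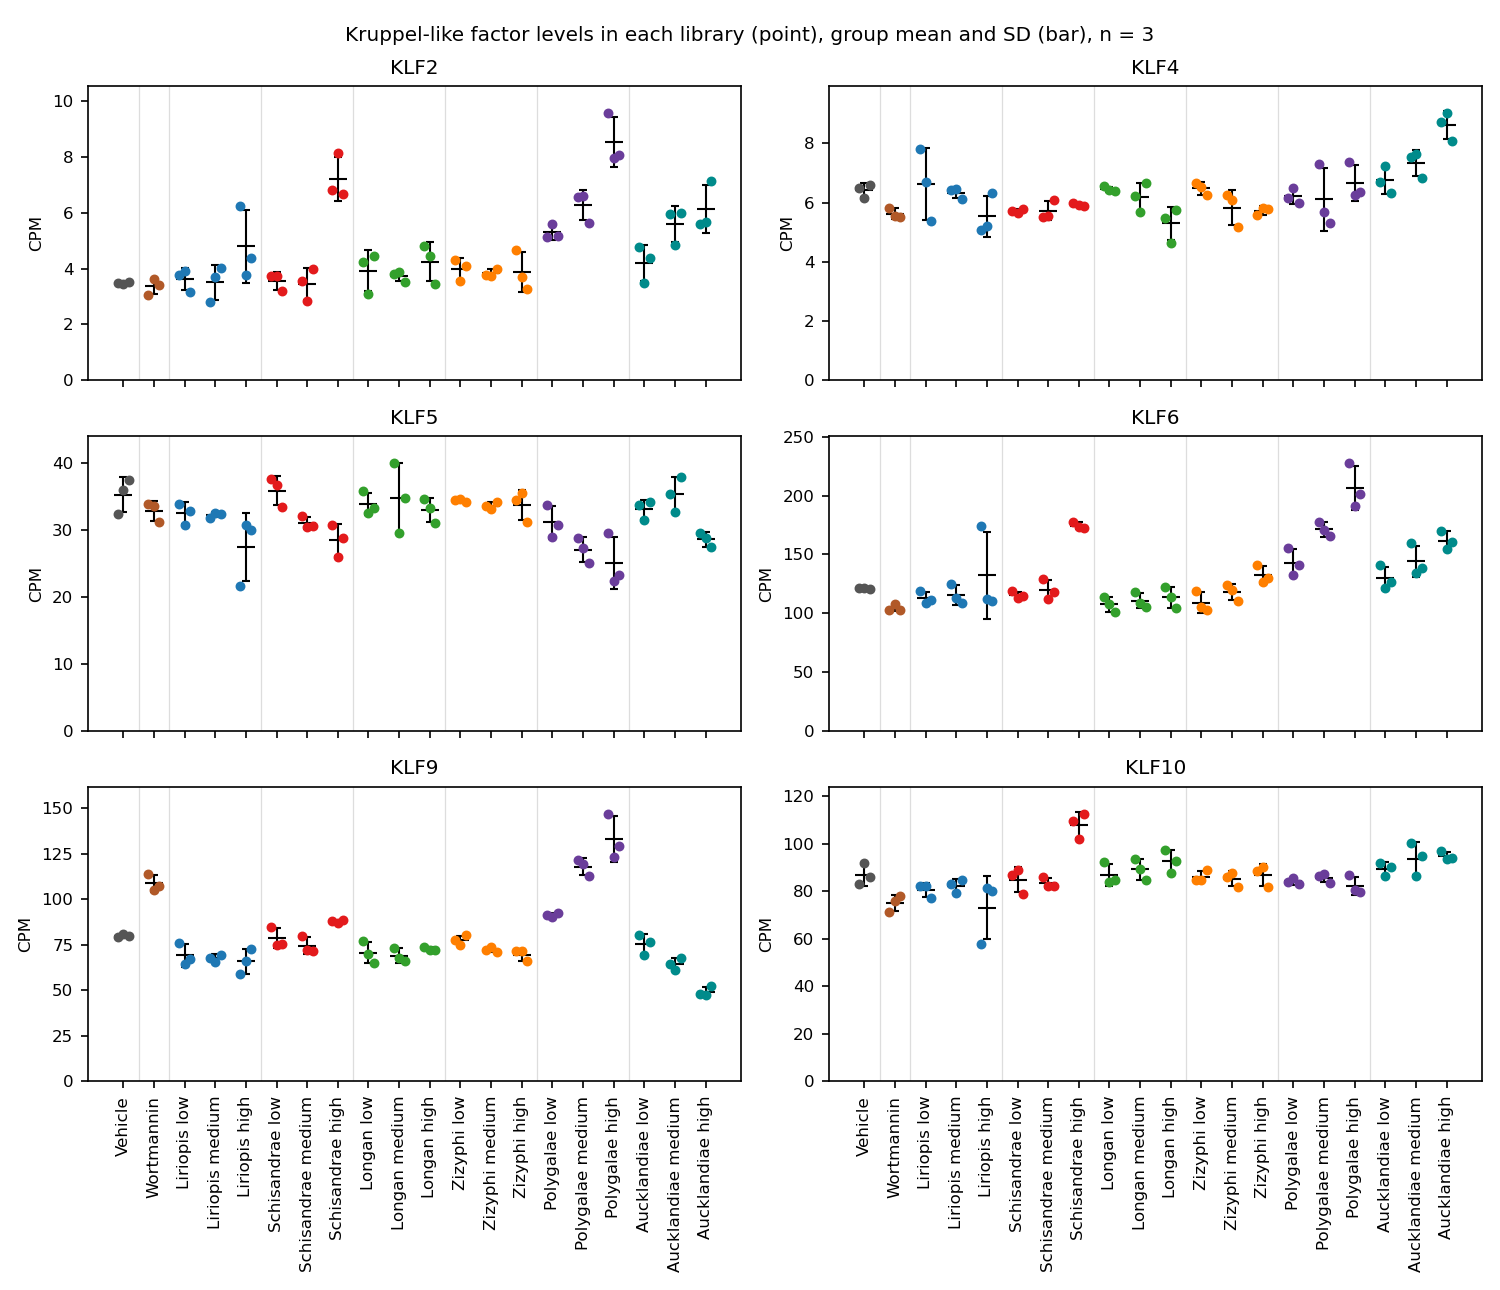
Levels of the 6 Kruppel-like factor genes in CPM (linear axes from 0) in each library by group, with points for libraries and bars for the group mean and SD (n = 3). KLF2 and KLF6 are highest with Polygalae high, KLF4 with Aucklandiae high and KLF10 with Schisandrae high, and KLF9 goes up with the Polygalae dose and down with the Aucklandiae dose.

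Counted by libraries that did not overlap, all 7 members differed between Schisandrae high and low, 6 of them above and KLF5 below. That share stands beside 62.5% of all tested genes in the same comparison. All 7 also differed between Aucklandiae high and low, 5 above and KLF5 and KLF9 below, beside 31.9% of all genes. Polygalae high and low differed in 4 members (THBD, KLF2, KLF6 and KLF9, all above), beside 52.0% of all genes. Zizyphi high and low differed in 4 members, with THBD and KLF6 above and KLF4 and KLF9 below, beside 17.5%. Longan high and low differed in 2 members, THBD above and KLF4 below, beside 19.3%, and in 4 without replicate 1 of Longan low. Liriopis high and low differed in 0 members, beside 10.7% of all genes, and in 1 to 3 when any 1 of the 6 Liriopis libraries compared was left out (1 without replicate 1 of Liriopis high, 3 without replicate 3 of Liriopis low). Leaving out a library makes non-overlap easier to reach, and the share of all genes in those settings is not given. Because the members were chosen with these contrasts known, nothing is read from these counts and shares.

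Against Vehicle, whose libraries form a set of their own, 7 members did not overlap for Schisandrae high (63.7% of all genes), 7 for Aucklandiae high (35.9%) and 5 for Polygalae high (57.8%). The counts were 4 for Zizyphi high (17.7%), 4 for Liriopis high (16.3%; 5 members without its replicate 1) and 3 for Longan high (23.6%). Wortmannin differed from Vehicle in 5 members, KLF9 above and THBD, KLF4, KLF6 and KLF10 below, beside 37.8% of all genes. The count without replicate 1 of Liriopis high rests on fewer libraries, which makes non-overlap easier to reach, and has no share of all genes beside it. These comparisons share the Vehicle libraries.

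Across the 20 group means of log2 CPM, KLF2 and KLF6 had a Pearson correlation of 0.941, and 0.931 over the 19 groups without Schisandrae high. THBD correlated with KLF6 at 0.747 and with KLF2 at 0.740 (0.815 and 0.752 without Schisandrae high), and with KLF4 at 0.236, or 0.545 without Schisandrae high. KLF5 ran the other way, at -0.776 with KLF6 and -0.761 with KLF2. KLF9 correlated with THBD at 0.136 (0.056 without Schisandrae high). These values describe points that share libraries, depth and normalisation. Over the same groups, the genes whose pattern was most like THBD were ZEB1, a zinc-finger repressor of epithelial genes (0.977), NDRG1 (0.970), FGF5, a growth factor (0.964), NBPF8, a member of a family of near-identical copies whose counts are therefore uncertain (0.960), and KCTD9 (0.959). Without Schisandrae high their correlations were 0.881 to 0.943. ZEB1 had 74.4 CPM in Vehicle, 132 CPM with Schisandrae high, 92.3 CPM with Polygalae high and 98.9 CPM with Aucklandiae high, a far narrower range than that of THBD. The genes most like KLF2 were PLEKHA3 (0.946), KLF6 and JKAMP (0.938). Those most like KLF4 were CCDC47 (0.893), EGLN1, the oxygen-sensing prolyl hydroxylase (0.851), and LIFR, the receptor of leukaemia inhibitory factor (0.827).

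The other Kruppel-like factor genes are not among the members described above. Their list, like the gene lists that follow, was also chosen with earlier results of these data known. The adjusted p-values do not allow for that choice. Genes of these lists were tested with edgeR's quasi-likelihood test, adjusted by Benjamini and Hochberg over all tested genes and called below 0.05. Of 12 other Kruppel-like factor genes, 8 passed the filter on low counts. Between Schisandrae high and low, where 49.7% of all genes were called, 5 of the 8 rose and 0 fell, with a median log2 fold change of 0.50 beside 0.004 over all genes. KLF7, linked to axon growth, rose from 23.7 ± 1.05 to 43.4 ± 0.40 CPM (SD, n = 3; log2 fold change 0.88, edgeR adjusted p = 1.31e-09). KLF11, a TGF-beta-responsive relative of KLF10, rose from 5.89 ± 0.43 to 8.91 ± 0.27 CPM (0.60, edgeR adjusted p = 1.67e-05). KLF17 rose from 2.32 ± 0.17 to 6.49 ± 0.48 CPM (1.48, edgeR adjusted p = 2.3e-10). The count was 3 with a replicate block within the library set. Between Polygalae high and low, where 36.2% of all genes were called, 2 of the 8 rose and 1 fell, and the median was 0.09 beside 0.011. KLF11 rose from 5.88 ± 0.41 to 9.78 ± 0.85 CPM (edgeR adjusted p = 4.96e-07), and KLF16 rose from 38.4 ± 0.44 to 46.5 ± 2.71 CPM (0.28, edgeR adjusted p = 0.0111, and 0.059 without replicate 3 of Polygalae high). None of the 8 was called by edgeR or DESeq2 between the high and low doses of Aucklandiae, Zizyphi or Longan or between Wortmannin and Vehicle. At an unadjusted p below 0.05 there were 2, 2, 0 and 1 of the 8, and edgeR called 10.6%, 0.674%, 0.247% and 12.0% of all genes. Without replicate 1 of Liriopis high, edgeR called 1 of the 8 for Aucklandiae, 1 for Zizyphi and 1 for Wortmannin.

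**Figure D3:**
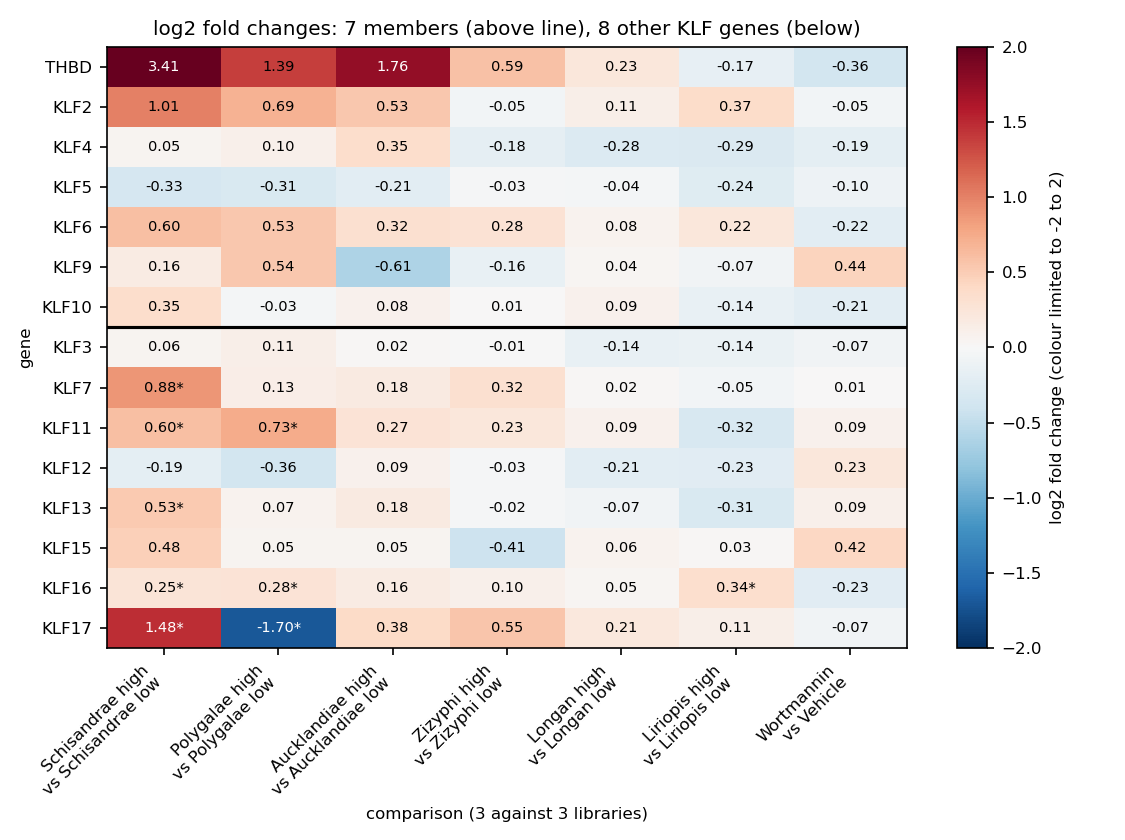
log2 fold changes (colour, limited to -2 to 2, with values printed) of the 7 members above the line and of 8 other Kruppel-like factor genes below it in 7 comparisons of 3 against 3 libraries. Stars mark edgeR adjusted p below 0.05 for the genes below the line only, and Schisandrae has 5 of them.

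The SP factors, the sister family with similar zinc fingers, had 7 of 9 genes tested. Schisandrae high against low called 6 of them, 2 up and 4 down, beside 49.7% of all genes, and the median was -0.28. SP1, the general activator at GC boxes, rose from 91.0 ± 4.28 to 117 ± 1.53 CPM (0.36, edgeR adjusted p = 0.0025, and 0.09 with a replicate block within the library set). SP8, a developmental factor, fell from 18.8 ± 1.84 to 4.43 ± 0.24 CPM (-2.09, edgeR adjusted p = 5.43e-17), and SP2 fell from 33.8 ± 3.10 to 24.6 ± 1.95 CPM (-0.46, edgeR adjusted p = 0.000283). SP8 went the other way with Polygalae, from 21.3 ± 1.11 to 32.9 ± 4.58 CPM (0.63, edgeR adjusted p = 2.08e-05). There 2 of 7 rose and 0 fell, beside 36.2% of all genes called, and 1 rose without replicate 3 of Polygalae low. With Aucklandiae, where 10.6% of all genes were called, SP8 was the 1 gene of 7 that changed, from 16.9 ± 0.99 to 11.1 ± 0.32 CPM (-0.60, edgeR adjusted p = 0.000651).

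Of 23 genes of thrombin, protein C and fibrinolysis, 16 were tested. Transcripts of the plasma proteins themselves were nearly absent. Those of prothrombin (F2), protein C (PROC) and plasminogen (PLG) stayed at or below 0.213 CPM in every library, and protein was not measured. Schisandrae high against low called 12 of the 16, 7 up and 5 down, beside 49.7% of all genes, with a median of 0.08. F3, the tissue factor that starts clotting, rose from 136 ± 5.00 to 371 ± 13.3 CPM (1.45, edgeR adjusted p = 1.59e-22). F2RL1, a protease-activated receptor, fell from 28.8 ± 1.19 to 14.8 ± 1.46 CPM (-0.96, edgeR adjusted p = 1.02e-16). Thus THBD and F3, whose products act in opposite directions on clotting, were both higher with Schisandrae high.

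Polygalae high against low called 15 of the 16 genes, 6 up and 9 down, beside 36.2% of all genes, with a median of -0.32. PLAT, the tissue plasminogen activator, fell from 184 ± 1.75 to 104 ± 5.40 CPM (-0.82, edgeR adjusted p = 6.21e-21). ANXA2, a plasminogen co-receptor with near-identical pseudogene copies that make its counts uncertain, fell from 1138 ± 8.96 to 622 ± 15.2 CPM (-0.87, edgeR adjusted p = 1.44e-11). Aucklandiae high against low called 9 of the 16, 6 up and 3 down, beside 10.6% of all genes, and 15 without replicate 1 of Liriopis high. PLAT rose there from 246 ± 12.8 to 382 ± 10.0 CPM (0.63, edgeR adjusted p = 3.4e-16), and PLAU, the urokinase gene, from 75.3 ± 3.97 to 125 ± 6.21 CPM (0.73, edgeR adjusted p = 3.57e-13). PLAT thus fell with Polygalae and rose with Aucklandiae, and the difference between the extracts was not tested.

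**Figure D4:**
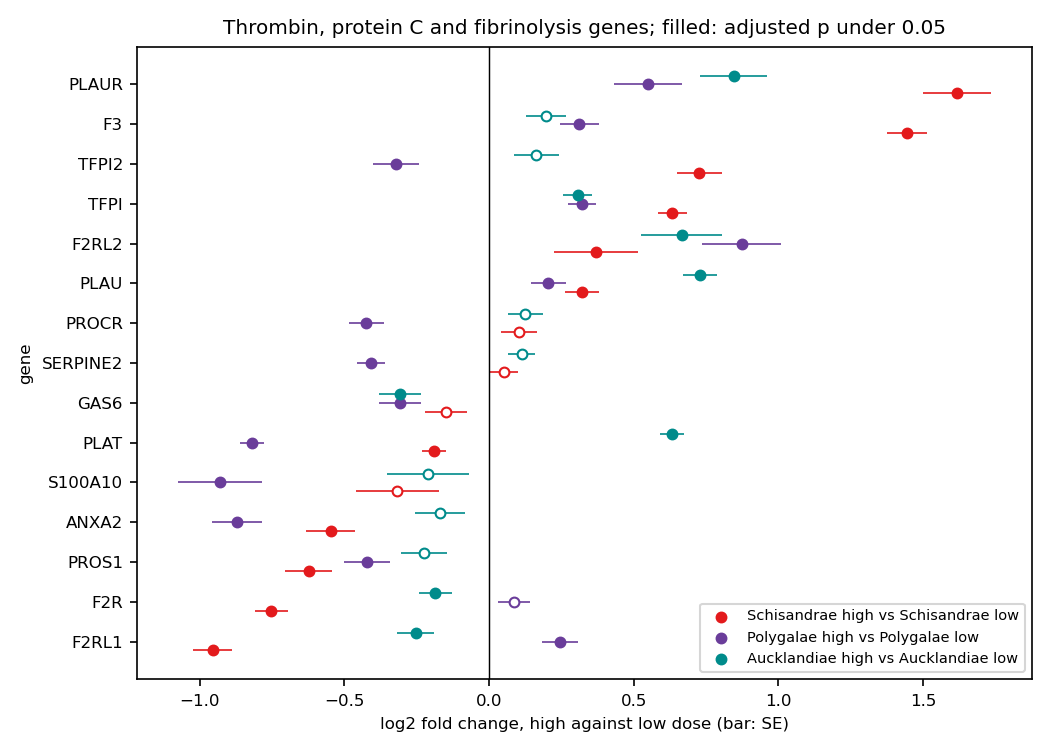
log2 fold change of high against low dose (points, with SE bars) of 15 of the 16 tested thrombin, protein C and fibrinolysis genes for Schisandrae, Polygalae and Aucklandiae, with filled points for edgeR adjusted p below 0.05. PLAT lies at 0.63 for Aucklandiae and -0.82 for Polygalae, and F3 at 1.45 for Schisandrae.

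Zizyphi, Longan and Liriopis called few of these 16 genes, and Wortmannin called more. Between Zizyphi high and low, where 0.674% of all genes were called, F3 alone changed, from 131 ± 2.79 to 178 ± 4.01 CPM (0.45, edgeR adjusted p = 4.28e-05), and 2 of the 16 were called without replicate 1 of Liriopis high. Between Longan high and low, where 0.247% were called, PLAU alone changed, from 75.1 ± 3.87 to 92.4 ± 3.57 CPM (0.30, edgeR adjusted p = 0.00862). That call was lost without replicate 1 or 3 of Longan low or replicate 3 of Longan high, with adjusted p up to 0.104, and 3 genes were called without replicate 1 of Liriopis high. Wortmannin against Vehicle, where 12.0% of all genes were called, changed 8 of the 16, 6 up and 2 down. TFPI, the inhibitor of tissue factor, rose from 47.9 ± 2.01 to 70.4 ± 2.44 CPM (0.56, edgeR adjusted p = 2.8e-11), SERPINE2 from 638 ± 9.24 to 893 ± 13.6 CPM (0.49, edgeR adjusted p = 2.98e-10) and PROS1, the protein C cofactor, from 25.1 ± 2.91 to 34.9 ± 1.33 CPM (0.48, edgeR adjusted p = 1.45e-05). Between Liriopis high and low, 16.1% of all genes and 2 of the 16 were called. Without replicate 1 of Liriopis high, edgeR called 0 genes in all in that comparison, with 1058 genes at an unadjusted p below 0.05.

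All 16 genes of the MEKK3, ERK5 and MEF2 route were tested. Of all genes, 49.7% were called between the Schisandrae, 36.2% between the Polygalae and 10.6% between the Aucklandiae high and low doses. Schisandrae high against low called 8 of the 16, 5 up and 3 down, a share near that of all genes. MEF2D, a MEF2 family factor, rose from 61.4 ± 0.95 to 86.0 ± 4.16 CPM (0.48, edgeR adjusted p = 8.05e-06). HDAC9, a repressor of MEF2, fell from 27.4 ± 1.96 to 16.3 ± 0.74 CPM (-0.75, edgeR adjusted p = 7.61e-06). Polygalae called 7, 6 up and 1 down, and 3 or 4 when replicate 1, 2 or 3 of Polygalae high or replicate 2 or 3 of Polygalae low was left out. MEF2D rose there as well, from 60.9 ± 2.04 to 86.3 ± 3.54 CPM (0.50, edgeR adjusted p = 7.03e-06), and MAP3K3, which encodes MEKK3, from 69.0 ± 0.84 to 84.8 ± 1.80 CPM (0.30, edgeR adjusted p = 1.17e-06). HDAC9 rose with Polygalae from 35.9 ± 2.21 to 47.5 ± 3.30 CPM (0.41, edgeR adjusted p = 0.00837, and 0.0616 without replicate 1 of Polygalae high). Aucklandiae called 2, both down, among them MEF2C, from 11.03 ± 0.33 to 7.14 ± 0.76 CPM (-0.62, edgeR adjusted p = 0.000116), and 5 without replicate 1 of Liriopis high.

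Genes known to respond to KLF2 and KLF4 in endothelium formed a list of 13, of which 10 were tested; NOS3 and SELE stayed at or below 0.169 CPM, whereas KDR, a receptor of vascular endothelial growth factor, ranged from 14.03 to 43.5 CPM and TEK, the angiopoietin receptor, from 0.409 to 2.09 CPM. Between high and low doses, 49.7% of all genes were called for Schisandrae, 36.2% for Polygalae and 10.6% for Aucklandiae. The Schisandrae and Aucklandiae counts, 5 and 1 of 10, lay near these shares. The list was not divided into genes raised and genes lowered by KLF2 or KLF4, so no direction is read from its counts or median. Schisandrae called 5, 2 up and 3 down, with CAV1, the caveolae coat gene, falling from 755 ± 29.01 to 390 ± 20.4 CPM (-0.96, edgeR adjusted p = 1.05e-22). Polygalae called 9, 1 up and 8 down, with a median of -0.81. ICAM1, an adhesion molecule of inflamed cells, was the 1 that rose, from 64.0 ± 1.33 to 126 ± 6.28 CPM (0.98, edgeR adjusted p = 2.6e-14). THBS1, the thrombospondin gene, fell from 1452 ± 61.8 to 695 ± 54.6 CPM (-1.06, edgeR adjusted p = 4.77e-08) and CAV1 from 607 ± 26.5 to 301 ± 16.6 CPM (-1.01, edgeR adjusted p = 3.27e-23). Aucklandiae called 1, ICAM1, which fell from 40.3 ± 3.58 to 28.6 ± 0.56 CPM (-0.50, edgeR adjusted p = 1.64e-05), and 4 without replicate 1 of Liriopis high.

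The TGF-beta list, which bears on KLF10 and KLF11, had 17 genes tested of 17. The shares of all genes called were 49.7% for Schisandrae, 36.2% for Polygalae, 10.6% for Aucklandiae, 0.674% for Zizyphi and 12.0% for Wortmannin. Schisandrae called 14, 6 up and 8 down, with SMAD3, a signal carrier, rising from 141 ± 2.22 to 228 ± 4.49 CPM (0.69, edgeR adjusted p = 5.23e-10) and SMAD7, its feedback inhibitor, falling from 30.6 ± 1.17 to 21.1 ± 1.73 CPM (-0.53, edgeR adjusted p = 5.02e-10). Polygalae called 10, 6 up and 4 down, with TGFBI, a matrix target, falling from 4127 ± 88.0 to 2082 ± 25.6 CPM (-0.99, edgeR adjusted p = 6.88e-18). Aucklandiae called 4, all down, with SMAD6 falling from 19.4 ± 1.78 to 11.3 ± 0.07 CPM (-0.78, edgeR adjusted p = 2.69e-09). Zizyphi called 2, both down, with SMAD6 falling from 18.7 ± 1.35 to 12.0 ± 0.35 CPM (-0.64, edgeR adjusted p = 3.39e-06), and 1 without replicate 2 of either dose. Wortmannin called 8, 7 up and 1 down, with TGFB1 rising from 523 ± 12.0 to 694 ± 39.6 CPM (0.41, edgeR adjusted p = 1.96e-05). That count was 5 without replicate 1 of Vehicle or replicate 2 of Wortmannin and 13 without replicate 1 of Liriopis high.

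The glucocorticoid and clock list, which bears on KLF9, had 14 of 15 genes tested. Over all genes, 49.7% were called for Schisandrae, 36.2% for Polygalae, 10.6% for Aucklandiae and 12.0% for Wortmannin. Polygalae, where KLF9 was highest, called 8, 3 up and 5 down, so more of the called genes fell than rose. The median log2 fold change of the list was 0.035 beside 0.011 over all genes. SGK1, a glucocorticoid-induced kinase, was 1 of the 3 that rose, from 85.2 ± 1.13 to 136 ± 4.502 CPM (0.67, edgeR adjusted p = 1.43e-15). Aucklandiae, where KLF9 was lowest, called 4, all down. TSC22D3, the glucocorticoid-induced leucine zipper, fell from 16.3 ± 0.58 to 12.0 ± 1.20 CPM (-0.44, edgeR adjusted p = 0.000945), and BHLHE41 fell from 51.9 ± 0.95 to 37.8 ± 3.00 CPM (-0.46, edgeR adjusted p = 1.4e-05). That count was 2 without replicate 1 of Aucklandiae high or replicate 2 of Aucklandiae low and 7 without replicate 1 of Liriopis high. Wortmannin called 4, 2 up and 2 down, and 2 without replicate 3 of Wortmannin. SGK1 rose from 69.8 ± 2.66 to 81.4 ± 0.53 CPM (0.22, edgeR adjusted p = 0.00135) and DBP from 5.88 ± 0.24 to 8.95 ± 0.31 CPM (0.61, edgeR adjusted p = 0.0134). CRY1 fell from 28.5 ± 0.83 to 24.5 ± 0.88 CPM (-0.21, edgeR adjusted p = 0.00219) and FKBP5 from 9.72 ± 1.06 to 7.61 ± 0.75 CPM (-0.35, edgeR adjusted p = 0.0242). TSC22D3 was not called (0.11, edgeR adjusted p = 0.514). Schisandrae called 10, 4 up and 6 down, with PER2, a clock repressor, falling from 16.1 ± 0.35 to 6.81 ± 0.31 CPM (-1.24, edgeR adjusted p = 2.24e-10).

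Retinoic acid, a known inducer of THBD, had 9 of 11 listed genes tested. The share called over all genes was 49.7% for Schisandrae, 36.2% for Polygalae, 10.6% for Aucklandiae, 12.0% for Wortmannin and 0.674% for Zizyphi. Schisandrae called 6, 2 up and 4 down (3 with a replicate block within the library set), with STRA6, the retinol transporter, falling from 84.4 ± 4.84 to 34.3 ± 1.83 CPM (-1.30, edgeR adjusted p = 6.44e-24). Polygalae called 6, 2 up and 4 down, with DHRS3, a retinaldehyde reductase induced by retinoic acid, rising from 52.2 ± 2.66 to 113 ± 2.88 CPM (1.12, edgeR adjusted p = 5.92e-16) and STRA6 falling from 62.5 ± 1.87 to 33.3 ± 2.12 CPM (-0.91, edgeR adjusted p = 4.22e-18). Aucklandiae called 2, with CYP26B1, a retinoic acid hydroxylase, rising from 38.8 ± 1.21 to 56.4 ± 1.26 CPM (0.54, edgeR adjusted p = 0.000641). The second, STRA6, was not called without replicate 3 of either Aucklandiae dose. Of 15 coregulators and turnover enzymes of Kruppel-like factors, all tested, Schisandrae called 9 (4 up, 5 down), Polygalae 4 (1 up, 3 down) and Aucklandiae 3 (2 up, 1 down; 6 without replicate 1 of Liriopis high). HDAC1, a deacetylase, fell in all 3, by 0.73, 0.45 and 0.23 on the log2 scale (edgeR adjusted p = 3.27e-22, 8.37e-15 and 2.94e-06). Wortmannin called 3 of the 9 retinoic acid genes, 2 up and 1 down, with DHRS3 rising from 30.4 ± 0.41 to 43.4 ± 1.27 CPM (0.52, edgeR adjusted p = 1.06e-05), and Zizyphi called 1, STRA6, which fell from 83.6 ± 2.30 to 69.9 ± 1.34 CPM (-0.26, edgeR adjusted p = 0.00653). The Zizyphi call was lost without replicate 1 of its high dose or replicate 3 of its low dose, and with no filter on low counts (edgeR adjusted p = 0.138), and 3 genes of the list were called without replicate 1 of Liriopis high.

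Cell type markers moved beside these results. Between high and low doses, edgeR called 49.7% of all genes for Schisandrae, 36.2% for Polygalae and 10.6% for Aucklandiae. With Polygalae high the summed astrocyte markers were 1835 to 2075 CPM, against 4874 to 4939 CPM in Vehicle, with VIM falling from 4221 ± 99.3 at the low dose to 1873 ± 116 CPM (-1.17, edgeR adjusted p = 2.73e-23). With Schisandrae high that sum, nearly all VIM, was 4739 to 4975 CPM, but 2 of the 4 astrocyte markers tested fell against the low dose. SOX9 fell from 78.3 ± 2.07 to 50.6 ± 0.85 CPM (-0.63, edgeR adjusted p = 1.49e-08) and SLC1A3, a glutamate transporter, from 29.04 ± 1.07 to 10.3 ± 0.62 CPM (-1.49, edgeR adjusted p = 3.15e-13). Against Vehicle edgeR called 3 of the 4 down, beside 9048 of 17792 genes in either direction. The summed endothelial markers were 1.64 to 1.74 CPM with Polygalae high, 2.20 to 2.86 CPM with Schisandrae high, 2.49 to 2.79 CPM with Aucklandiae high and 2.52 to 2.88 CPM in Vehicle. At the low doses that sum was 1.94 to 2.06 CPM for Polygalae, 1.89 to 2.65 CPM for Schisandrae and 1.81 to 2.25 CPM for Aucklandiae, so all 3 Aucklandiae high libraries lay above the low ones. Of the 3 endothelial markers tested, edgeR called 1 up for Schisandrae high against low (TIE1), 1 up (ESAM) and 2 down (PECAM1 and TIE1) for Polygalae and 0 for Aucklandiae (median log2 fold change 0.61, with 1 marker at an unadjusted p below 0.05 and 0 called by DESeq2). The Schisandrae call was lost when any 1 of its 6 libraries was left out, and 1 of the 3 Polygalae calls was left without replicate 3 of the high dose or replicate 1 or 3 of the low dose. The summed leukocyte markers ranged from 184 to 240 CPM over these 3 high-dose groups and 189 to 200 CPM in Vehicle. Nearly all of each sum came from CD68. In Vehicle PTPRC had 10.1 CPM and CSF1R 3.61 CPM, whereas ITGAM and LYZ stayed at or below 0.198 CPM in every library. Of the 4 leukocyte markers tested, edgeR called 2 up and 2 down between Schisandrae high and low. That count was 2 without replicate 1 of Schisandrae high. Polygalae called 1 of the 4 and Aucklandiae 1, both down. The summed epithelial markers, nearly all KRT18 and KRT8, were 62.3 to 66.4 CPM with Schisandrae high, 41.4 to 43.9 CPM with Polygalae high and 100.9 to 105 CPM with Aucklandiae high, against 132 to 149 CPM in Vehicle. The part of these marker shifts and of the mitochondrial share in the results for the 7 genes was not tested.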

How the data were processed

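The deposited values are RSEM-type expected counts per Ensembl gene. Per the submitters' processing notes the authors used FastQC 0.11.9, Trim Galore 0.6.5, STAR 2.7.3a, RSEM 1.3.3 and GRCh38; the annotation release and strand setting are not stated in any source used here. Per the labels, libraries were directional, and per the series text samples with little RNA were left out before deposit. Expected counts (11.02% not whole) were rounded. Genes passing filterByExpr (min.count 10) were scaled by TMM and fitted in edgeR 4.0.16 (R 4.3.3) over all 60 libraries with 1 mean per group, which left 40 residual degrees of freedom and a biological coefficient of variation of 8.72%. Contrasts used the quasi-likelihood test with Benjamini-Hochberg adjustment over 17792 genes. The SE is the log2 fold change divided by the square root of F. Counts were also simulated for all 60 libraries from the Vehicle means, with changes set in Schisandrae high only. Between Schisandrae high and low, 67 of 100 genes changed 1.5-fold and 87 of 100 changed 2-fold were called, with 3 false calls among 15291 genes. Far fewer genes changed in this simulation than the 49.7% called in the data. The members, lists and tests were chosen with earlier results of these data known. Of each list, up to 3 called genes with the smallest p and at least 5 CPM in the higher group could be named, beside the 5 genes most like THBD and 3 each most like KLF2 and KLF4. Genes named at or near 0, marker genes named by level or call, and FKBP5 and TSC22D3 with Wortmannin were chosen after their values were seen. Alternatives were DESeq2 1.42.0, its size factors, no filter, only the groups compared, a replicate block and leaving out each library; leaving out replicate 1 of Liriopis high from every comparison and a replicate block within the library set were chosen after seeing the data. No 2 libraries of a group agreed within counting noise (chi-square per degree of freedom 2.045 to 188.9 over 60 pairs). Promoter sequences are RefSeq's. The values of 1 gene of the thrombin and fibrinolysis list are not reported here, though the list's counts and medians include it. Figures were drawn with matplotlib 3.10.9.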

Additional observations from a re-analysis of the deposited data

Results flagged for a closer look

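KLF9 moved in opposite directions with the doses of Polygalae and Aucklandiae, extracts whose libraries share a set. All 3 Polygalae high libraries lay above the low ones and all 3 Aucklandiae high libraries below theirs, and the log2 fold changes differed by 1.16. KLF4 lay higher in all Aucklandiae high libraries and lower in all Longan high libraries than in their low doses, and these log2 fold changes differed by 0.63. Neither difference was tested, since both genes were chosen with these values known.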

How the results depend on the processing

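Beside the THBD values below, 1043 alternative fold changes of the 7 genes were computed, and 1042 moved by less than the spread of their libraries. That of KLF4 between Schisandrae doses moved further. Leaving out 1 of 3 libraries can hardly shift a group mean by more than that spread, so the leave-one-out values could hardly fail this rule. Small fold changes could change sign within it, as that of KLF10 between Zizyphi high and Vehicle did in 6 of 12 alternatives. For THBD, leaving out 1 library at a time gave log2 fold changes of high against low of 3.34 to 3.48 for Schisandrae, 1.72 to 1.82 for Aucklandiae, 1.33 to 1.42 for Polygalae, 0.53 to 0.65 for Zizyphi, 0.18 to 0.28 for Longan and -0.30 to -0.03 for Liriopis.

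Called genes depended more on the processing. Leaving out 1 library gave 0 to 7371 genes for Liriopis high against low (2864 with all), 8040 to 10411 for Schisandrae, 13 to 329 for Longan (44 with all), 68 to 518 for Zizyphi (120), 5577 to 8265 for Polygalae and 1386 to 3489 for Aucklandiae (1890). Against Vehicle it gave 1 to 8767 for Liriopis high (6045), 8163 to 10601 for Schisandrae, 37 to 1269 for Longan (150), 56 to 420 for Zizyphi (108), 7352 to 9760 for Polygalae, 1698 to 4126 for Aucklandiae (2353) and 1476 to 4108 for Wortmannin (2129). Outside the Liriopis comparisons the highest of each came without replicate 1 of Liriopis high. Without a filter on low counts, more genes were tested and the counts were 17 for Longan, 62 for Zizyphi and 1200 for Aucklandiae high against low, and 48, 59 and 1548 for the same herbs and 1180 for Wortmannin against Vehicle. With only the 2 groups compared in the fit, fewer libraries gave 0 for Liriopis high against low (166 at an unadjusted p below 0.05) and 0 against Vehicle (290), 68 for Longan high against low, and 479 for Longan, 3726 for Aucklandiae and 4083 for Wortmannin against Vehicle. DESeq2 called 86 for Longan and 186 for Zizyphi high against low and 364 for Longan against Vehicle; the cause was not tested. PLAUR between Liriopis doses had a log2 fold change of 0.40, and from -0.022 (without replicate 1 of Liriopis high) to 0.574 when 1 library was left out.

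Over all genes the replicate numbers did not pair the samples by the rule used: in no comparison did all 3 same-numbered pairs of deviations correlate above 0.1, although KLF6 by itself was highest in replicate 1 of every extract group. With the number as a replicate block the counts were 3091 for Liriopis, 8881 for Schisandrae, 47 for Longan, 134 for Zizyphi, 6463 for Polygalae and 1918 for Aucklandiae high against low. A replicate block within the library set gave 0 for Liriopis (2356 at an unadjusted p below 0.05), 188 for Longan and 362 for Zizyphi. Only for Aucklandiae high and Vehicle did every sample correlate best with its own number. Genes near 5 CPM, such as KLF2 and KLF4, are limited by depth and by 3 libraries a group.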

Other observations

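KLF6 followed the replicate number of the labels. In all 18 extract groups, replicate 1 had the highest KLF6 level of the 3 libraries, and of 17792 genes KLF6 was the only gene for which a single replicate number was highest in every extract group. The margin was wide in Liriopis high (175 CPM against 112 and 110 CPM) and in Polygalae high (228 CPM against 191 and 201 CPM), and narrow in Schisandrae high (178 CPM against 173 and 172 CPM). In Wortmannin, replicate 2 was highest, at 107.8 CPM against 102.8 and 102.8 CPM. For the other members, replicate 1 was highest in 7 (THBD, KLF2 and KLF4), 8 (KLF10), 10 (KLF9) and 11 (KLF5) of the 18 groups. The pattern was noticed in these data, and no label says what a replicate number stands for.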
